A study of Drosophila melanogaster with 4 samples.

Results

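Broad HDAC3 peaks are the 733 peaks of the first-round w1118 rat list that span 1000 bp or more on 2L, 2R, 3L, 3R, 4 or X, the chromosome arms, out of 6129 peaks of that list there. They were chosen by their width in that list, so their width, and the fold enrichment and q-value that go with it, are given as a description. The other 5396 peaks of the list, all under 1000 bp, are called narrower peaks. The assay was CUT&Tag, in which an antibody directs a transposase to the bound protein and the transposase tags the DNA around it, and it was applied to whole embryos 2 to 4 h old. The first round comprised w1118 embryos, a white-eyed laboratory strain, and used 2 antibodies to HDAC3, from rat and from rabbit. The second round comprised, with the rat antibody, tub-GAL4/shRNA HDAC3 embryos, in which a maternal α-tubulin Gal4 driver had expressed a short hairpin RNA against HDAC3 in the female germline, and w1118 embryos without driver or hairpin. Each library came from nuclei of pooled embryos with all tissues mixed, and w1118 with the rat antibody had 2 libraries, 1 in each round, while w1118 with the rabbit antibody and HDAC3 shRNA had 1 each. No test across libraries was made. The second-round w1118 list, the only replicate, was split at the same width where a comparison could be repeated in it. Intervals are exact binomial (Clopper-Pearson) 95% intervals, which cover counting error over peaks only, and the depth of the libraries is unknown.

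HDAC3 is a class I histone deacetylase that in flies, as in mammals, is found in a corepressor complex with SMRTER (encoded by Smr), the fly relative of NCoR and SMRT, and Ebi. In mammals the binding of NCoR or SMRT switches on its catalytic activity, and roles that do not need this activity are known too. A wide peak is a stretch over which tagged fragments stayed above background without a long gap. It can arise from 1 large occupied region or from several neighbouring sites joined by the peak caller, and the lists give no summit that would tell these apart.

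To show the DNA at the middle of broad HDAC3 regions, windows reaching 100 bp to each side were taken at the centre of the bases held by the rat, rabbit and second-round w1118 peaks, where each of these spanned 1000 bp or more. Windows that touched an annotated untranslated region were not printed. The first 4 are AT-rich and the next 3 are not, and they were chosen after their values were seen. The last is the centre of the HDAC3 shRNA peak inside a broad peak of tna. Capitals mark GAGAG, the core of the element bound by GAGA factor, or its reverse complement CTCTC. All are on the plus strand of dm6, 5′ to 3′.
brk, 640 bp upstream of its TSS, chrX:7307199-7307399: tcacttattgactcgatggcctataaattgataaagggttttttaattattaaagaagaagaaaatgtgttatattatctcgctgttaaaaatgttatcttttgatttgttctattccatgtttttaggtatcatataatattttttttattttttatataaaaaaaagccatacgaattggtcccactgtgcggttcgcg
Socs36E, intron, chr2L:18150940-18151140: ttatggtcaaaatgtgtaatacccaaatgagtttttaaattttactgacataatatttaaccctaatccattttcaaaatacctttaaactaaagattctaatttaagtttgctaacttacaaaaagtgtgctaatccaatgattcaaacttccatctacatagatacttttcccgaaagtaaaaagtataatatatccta
Smr, intron, chrX:12735653-12735853: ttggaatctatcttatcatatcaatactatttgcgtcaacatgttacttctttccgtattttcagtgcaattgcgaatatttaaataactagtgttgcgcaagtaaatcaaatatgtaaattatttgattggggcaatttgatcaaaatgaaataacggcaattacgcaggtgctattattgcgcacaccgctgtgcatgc
knrl, 630 bp upstream of its TSS, chr3L:20621189-20621389: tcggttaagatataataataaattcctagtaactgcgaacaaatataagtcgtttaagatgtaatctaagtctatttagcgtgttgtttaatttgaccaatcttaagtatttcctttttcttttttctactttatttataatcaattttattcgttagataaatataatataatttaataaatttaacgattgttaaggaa
sll, 1404 bp upstream of its TSS, chr3R:17604602-17604802: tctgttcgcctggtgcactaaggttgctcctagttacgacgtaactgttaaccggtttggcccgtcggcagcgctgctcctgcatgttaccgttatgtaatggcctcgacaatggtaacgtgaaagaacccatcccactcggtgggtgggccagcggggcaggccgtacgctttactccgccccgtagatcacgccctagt
elav, intron, chrX:522460-522660: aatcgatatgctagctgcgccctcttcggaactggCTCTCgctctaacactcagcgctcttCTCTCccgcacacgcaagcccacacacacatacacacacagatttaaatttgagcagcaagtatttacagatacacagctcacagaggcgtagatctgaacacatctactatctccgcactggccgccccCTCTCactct
brk, 7386 bp upstream of its TSS, chrX:7300453-7300653: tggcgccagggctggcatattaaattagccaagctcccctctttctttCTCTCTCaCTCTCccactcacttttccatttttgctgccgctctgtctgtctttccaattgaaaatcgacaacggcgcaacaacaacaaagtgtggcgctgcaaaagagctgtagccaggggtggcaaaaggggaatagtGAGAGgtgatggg
tna, intron, chr3L:10855756-10855956: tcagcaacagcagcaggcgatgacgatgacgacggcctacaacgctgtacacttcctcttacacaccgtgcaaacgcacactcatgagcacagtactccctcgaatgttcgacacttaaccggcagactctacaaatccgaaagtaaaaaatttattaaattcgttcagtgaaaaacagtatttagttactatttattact

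The windows at brk, Socs36E, Smr and knrl had GC contents of 27.4%, 25.9%, 34.3% and 21.9%, and none held GAGAG. The windows at sll and elav had 57.7% and 51.2%, and that upstream of brk 50.2%. The elav window held 3 matches to GAGAG and the upstream brk window 4, 2 of which overlap each other. brk encodes a repressor of Dpp target genes, Socs36E a suppressor of JAK/STAT signalling, knrl a relative of the gap protein Knirps, sll a transporter of the sulphate donor into the Golgi, and elav an RNA-binding protein of neurons. The tna window had a GC content of 42.3% and none of the motifs searched.

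The width of the broad peaks had a median of 1283 bp and quartiles of 1117 and 1521 bp. Of the 733, 196 (26.7%) reached 1500 bp, 64 reached 2000 bp, 16 reached 2500 bp and 6 reached 3000 bp, with 3792 bp as the widest. The narrower peaks had a median of 355.5 bp. The number of peaks was highest from 200 to 299 bp and fell with each step of 100 bp from there to the limit, with no gap at it. The broad peaks made up 30.8% of all peak bases on the arms. Just inside the limit, at 1000 bp, lay a peak over the TSS of CG9743, a peak 35 bp from the TSS of Cyt-c-p, which encodes a cytochrome c, and a peak over the TSS of lncRNA:CR44733. Just outside lay peaks of 999 bp in an intron of chinmo, which encodes a zinc finger protein, and over the TSS of CG32500, and a peak of 998 bp at CG8818. A further 15 peaks of 1000 bp or more lay off the arms and were not members.

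**Figure D1:**
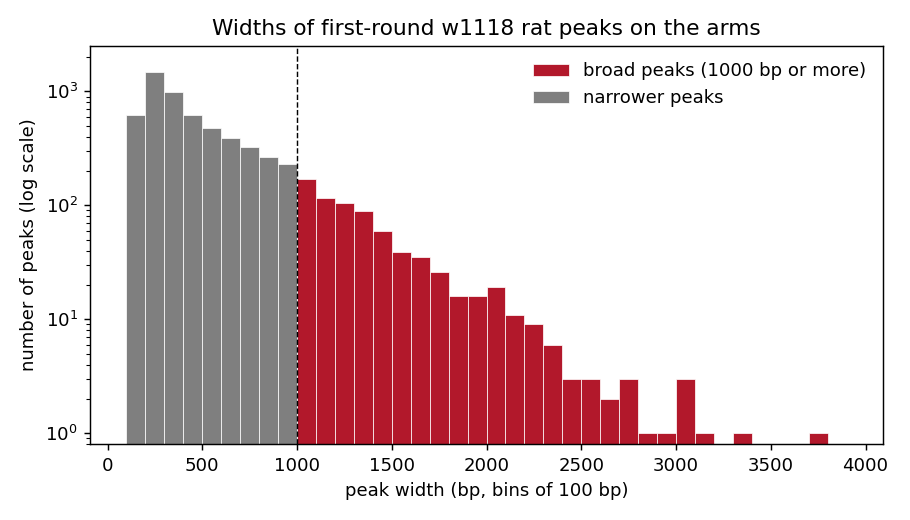
Number of first-round w1118 rat peaks on the chromosome arms (log scale) by width in bins of 100 bp. Broad peaks (red) lie right of the dashed line at 1000 bp and narrower peaks (grey) left of it; the counts peak at 200 to 299 bp (1488 peaks) and show no gap at the limit, and the widest peak spans 3792 bp.

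By fold enrichment few of the strongest peaks of the list were broad, whereas by q-value broad peaks ranked higher. Their fold enrichment, the ratio of a peak's signal to its local background, had a median of 3.84 and reached 8.59, and that of the narrower peaks had a median of 3.69 and reached 20.3. Of the 10 peaks with the highest fold enrichment none was broad, and of the first 100, 5 were. Among the first 500 and 1000 the broad shares were 9% and 10.2%, near that of the list. The −log10 q had a median of 4.17 in broad peaks and 2.86 in narrower peaks. With all peaks ranked and divided into 5 groups of like size, the group of highest −log10 q held 240 broad and 986 narrower peaks, and that of highest fold enrichment 136 and 1090. The lists have the layout of broad calls of the peak caller, in which fold enrichment is an average over the region. Whether that mode was used is not given in the sources used here, so fold enrichments of peaks of unlike width may not be on 1 scale. Peaks of 1000 bp or more made up 12.6% of the arm peaks of the rabbit list (435 of 3448) and 17.3% of those of the second-round w1118 list (180 of 1038). None of the 18 arm peaks of the HDAC3 shRNA list reached this width, and the widest of the 18 spanned 832 bp, but 13 of its 84 peaks off the arms did. Broad peaks were spread over the arms much as the narrower ones were, making up 11.6% to 12.6% of the peaks of each large arm, and chromosome 4 held 3 among its 56. The gap to the next peak had a median of 5442 bp for broad peaks and 4983 bp for narrower ones, and 6.41% and 10.0% had a neighbour within 1000 bp.

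The 12 broad peaks of highest fold enrichment were as follows. The strongest, chr2L:4810626-4811922, spanned 1297 bp in lncRNA:CR45297, 1087 bp from the nearest TSS of a protein-coding gene (CG15629), with a fold enrichment of 8.59. The next was at disco, which encodes a zinc finger protein of head and limb development, chrX:16216693-16217748, with 8.28. Peaks over or within 100 bp of a TSS followed at app, a palmitoyltransferase gene of the Fat pathway (8.19), at mgl, which encodes the endocytic receptor Megalin (7.91), and at cv, which encodes a BMP-binding protein (7.67). The peak at the TSS of brk, chrX:7306647-7307946, had 7.07. The gene cg, which encodes the zinc finger protein Combgap, had one of 7.03, Socs36E one of 6.82 and ptc, which encodes the Hedgehog receptor, one of 6.71. A peak 2869 bp from CG18518 had 6.84. The remaining 2 were intergenic, 10543 bp from Tollo, which encodes a Toll family receptor (7.53), and 5935 bp from Npc1b, a sterol transport gene (6.89). Of these 12, the rabbit list held 11, all but that near Npc1b. The second-round w1118 list held 10, all but those near Tollo and at ptc. With all peaks of the list divided into 5 groups by fold enrichment, the strongest group held 136 broad peaks. Of these, 91.9% overlapped a rabbit peak and 65.4% a second-round w1118 peak.

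The 8 widest broad peaks had fold enrichments from 2.95 to 4.06. Over the 64 peaks of 2000 bp or more the median −log10 q was 4.97, the highest of any width class examined. The widest, chr2L:16350167-16353958, spanned 3792 bp and held TSSs of chif, a gene of replication initiation, and of its neighbours CG4455 and Hyls1. Its fold enrichment was 2.95, its rabbit peak spanned 1151 bp and the second-round w1118 list had none. A 3328 bp peak covered the TSS of CG10543 and reached into Prosalpha3, a proteasome subunit gene. A 3159 bp peak overlapped the bodies of Mi-2, which encodes a nucleosome remodeller, and Su(Tpl), which encodes the elongation factor ELL, without a TSS inside. Peaks over TSSs spanned 3082 bp at Nrt, a cell adhesion gene, 3075 bp at Imp, which encodes an mRNA-binding protein, 3064 bp at l(3)neo38 and 2938 bp at Dp, the E2F partner gene, and its neighbour Fsn. The last, of 2825 bp, overlapped no gene, 2935 bp from CG9380, and the rabbit peak there was wider at 3485 bp. The Nrt peak was the only one of the 8 without a peak in the rabbit list, which held 76.6% of all peaks of 2000 bp or more.

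The rabbit list held a large share of the broad peaks. Of the 733, 508 (69.3%, 65.8 to 72.6%) overlapped a rabbit peak by at least 1 bp, against 1955 of 5396 narrower peaks (36.2%, 34.9 to 37.5%) and 40.2% of all peaks of the list on the arms. A wide peak meets another peak more easily than a short one, so the midpoint, a single base per peak, was also used. The midpoint lay inside a rabbit peak for 344 broad peaks (46.9%, 43.3 to 50.6%), against 1742 narrower peaks (32.3%, 31.0 to 33.5%) and 34.0% of all. By bases, 42.2% of the sequence in broad peaks and 32.1% of that in narrower peaks lay inside rabbit peaks, which cover 1.40% of the arms. The difference between the groups was thus smaller by midpoint and by base than by any overlap. Among peaks in introns, 35 of 68 broad peaks (51.5%) and 166 of 809 narrower ones (20.5%) met a rabbit peak, and the midpoint did so for 25.0% and 19.3%, with intervals that overlapped.

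Fold enrichment moved with these shares. When all 6129 peaks were ranked by fold enrichment and divided into 5 groups of like size, the midpoint of 37 of 109 broad peaks (33.9%) lay in a rabbit peak in the weakest group, against 189 of 1117 narrower peaks (16.9%). In the strongest group it did so for 85 of 136 broad peaks (62.5%) and 692 of 1090 narrower peaks (63.5%). Broad and narrower peaks were thus 1 percentage point apart in the strongest group, where broad peaks reached a fold enrichment of 8.59 and narrower ones 20.3. In every weaker group the broad share was the higher. From weaker to stronger, the groups between had 33.1% against 19.1%, 47.3% against 24.9% and 51.8% against 37.6%. The gap was widest in the middle group. Ranked by −log10 q instead, the top group had the reverse order, 149 of 240 broad (62.1%) and 666 of 986 narrower peaks (67.5%). In each other group by −log10 q the broad share was the higher, with 30.6% against 14.8% in the lowest. The part of strength in the difference was not tested further.

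In the second-round w1118 list, made with the same genotype and antibody, 290 broad peaks (39.6%, 36.0 to 43.2%) had an overlapping peak, against 710 narrower peaks (13.2%, 12.3 to 14.1%) and 16.3% of all. The midpoint lay inside such a peak for 192 broad peaks (26.2%) and 623 narrower peaks (11.5%), with 13.3% over all. In the strongest group by fold enrichment these shares were 44.1% and 29.5%, and in the weakest 14.7% and 4.39%. In the top group by −log10 q they were 52.1% and 37.8%. The second-round list is much shorter than the first, 1038 against 6129 arm peaks, which limits every share. The share of any overlap with the second-round list rose with every width class, to 67.2% at 2000 bp or more. Its midpoint share lay between 21.8% and 23.6% from 500 to 1499 bp and reached 40.6% in the widest class. The midpoint share for the rabbit list lay between 41.9% and 56.1% in every width class from 500 bp upwards.

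**Figure D2:**
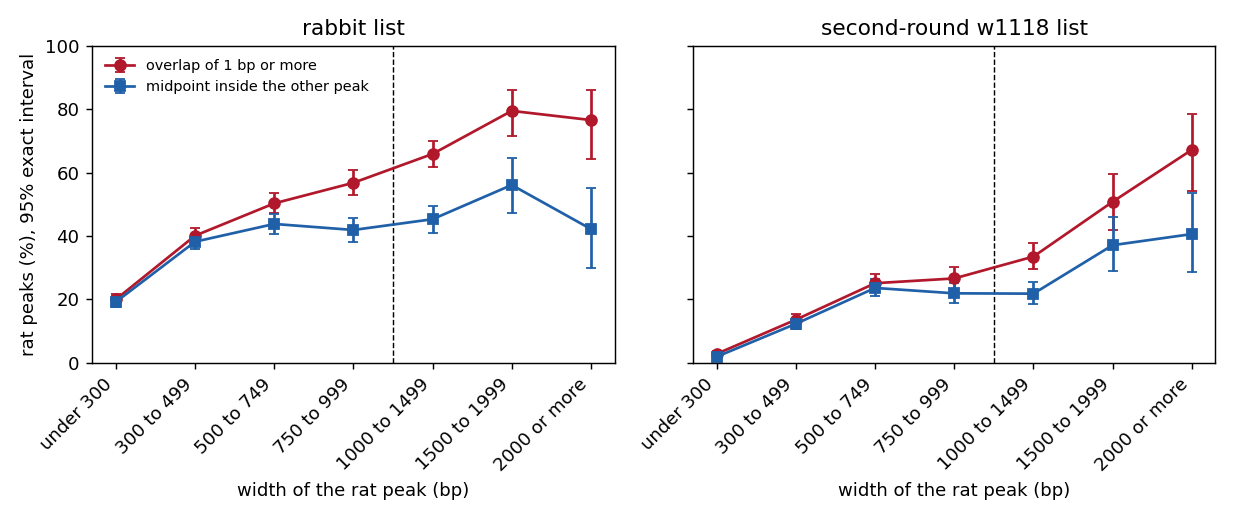
Share of first-round w1118 rat peaks (%) that overlap a peak of the rabbit list (left) or the second-round w1118 list (right), by width class of the rat peak in bp, with 95% exact binomial intervals. Circles count any overlap and squares only a midpoint inside the other peak; the dashed line separates narrower from broad peaks, and the 2 measures part as peaks get wider, to 76.6% and 42.2% for the rabbit list at 2000 bp or more.

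Width carried over in part to the other lists. At the 508 broad peaks with a rabbit peak, the widest overlapping rabbit peak had a median width of 935.5 bp (quartiles 487 and 1226 bp), against 418 bp (291 and 651 bp) at the narrower ones. It reached 1000 bp at 224 of 508 broad peaks (44.1%, 39.7 to 48.5%), against 169 of 1955 narrower peaks (8.64%) and 16.0% over all peaks with a rabbit peak. Rabbit peaks covered a median of 62.9% of a broad peak and 83.5% of a narrower one, and 14 broad peaks held 2 or 3 separate rabbit peaks. In the second-round w1118 list the peak at a broad rat peak reached 1000 bp in 112 of 290 cases (38.6%), against 110 of 710 (15.5%). Peaks of 1000 bp or more in all 3 w1118 lists were found at 63 broad peaks (8.59%). At narrower peaks, both other lists reached 1000 bp in 19 cases (0.352%).

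The 63 broad peaks that were wide in all 3 lists had median values of 1606 bp for width and 4.16 for fold enrichment, and 52 of them were promoter peaks, 7 intergenic and 4 in introns. The strongest was that over the TSS of brk, where the rabbit peak spanned 1221 bp and the second-round peak 1721 bp. At cg the rabbit and second-round peaks spanned 1533 and 1637 bp, and at Socs36E 1298 and 1548 bp. At knrl the rat peak spanned 1637 bp and the rabbit peak 1558 bp. The 63 also included the Smr intron and peaks at kis, a gene for a chromodomain remodeller, cic, a repressor gene downstream of receptor tyrosine kinases, nej, a histone acetyltransferase gene, and gro. At Mi-2 the rat, rabbit and second-round peaks spanned 3159, 2251 and 1844 bp.

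**Figure D3:**
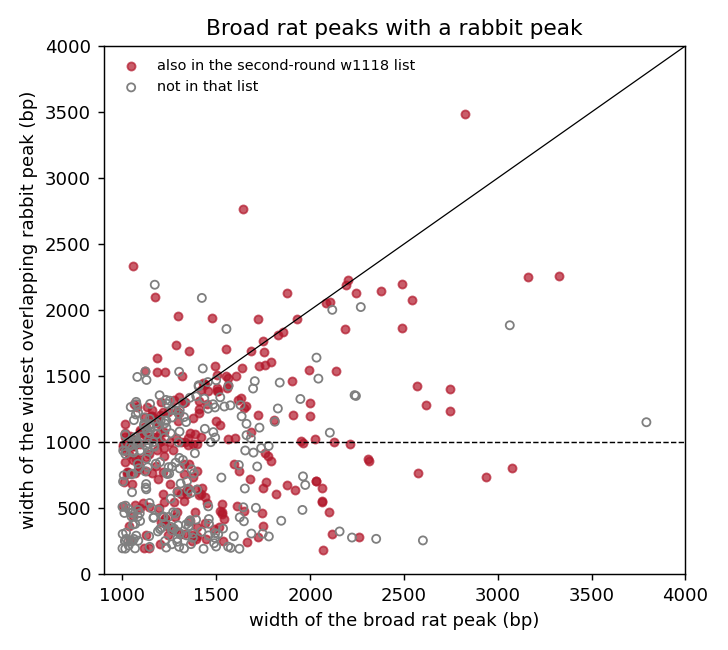
Width of the widest overlapping rabbit peak (bp) against the width of the broad rat peak (bp), for the 508 broad peaks with a rabbit peak. Filled circles also have a second-round w1118 peak and open circles do not; the solid line marks equal widths and the dashed line 1000 bp, which 224 of the rabbit peaks reach.

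By any overlap, a measure that favours wide peaks, the 2 other w1118 lists together held most but not all of the broad peaks. By midpoint the rabbit list held 46.9% of them and the second-round list 26.2%. Both the rabbit and the second-round w1118 list held 258 of them (35.2%), the rabbit list alone 250 (34.1%), the second-round list alone 32 (4.37%) and neither 193 (26.3%). For narrower peaks the shares were 9.60% in both and 60.2% in neither. Broad peaks in both lists had median values of 4.26 for fold enrichment and 1377 bp for width, and those in neither had 3.53 and 1188 bp. Intronic broad peaks had medians of 1191.5 bp in width and 4.07 in fold enrichment, against 1292 bp and 3.84 for the promoter ones. A TSS lay inside 69.8% of the broad peaks in both lists and 50.3% of those in neither. It did so for 76% of those in the rabbit list alone and 37.5% of those in the second-round list alone. Among the broad peaks in neither list were the peaks over the TSSs of the gap genes hb and kni and of the pair-rule genes eve and slp1, and the peak in oc. The other broad peaks of these 2 gene lists were recovered, those of knrl and run in both lists and those of gt and odd in the rabbit list alone.

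The HDAC3 shRNA list met 4 broad peaks (0.546%, 0.149 to 1.39%), against 10 narrower peaks (0.185%, 0.0889 to 0.341%) and 0.228% of all, and these intervals overlap. The 4 lay at magu, which encodes a secreted SMOC protein (chr2R:10055194-10056875, 1682 bp), at PRAS40, an inhibitor of the TOR kinase (chr2R:14481038-14482648, 1611 bp), at CG42807 (chr2R:13569200-13571075, 1876 bp) and at tna, which encodes a protein that acts with the Brahma remodelling complex (chr3L:10855449-10857808, 2360 bp). The shRNA peaks there spanned 653, 462, 363 and 479 bp and covered 38.8%, 28.7%, 19.4% and 20.3% of the broad peak. In 1 of the 4 the midpoint of the broad peak lay inside the shRNA peak, so the order of broad and narrower peaks depended on the measure (0.136% against 0.148% by midpoint). Each of the 4 also had a second-round w1118 peak, of 1063 bp at magu, 899 bp at PRAS40, 687 bp at CG42807 and 2429 bp at tna. With 1 library per genotype, depletion of HDAC3 and a difference in depth between the libraries cannot be told apart.

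Most broad peaks, like most narrower ones, were promoter peaks by the wide window used here. The share of the arms inside that window was not measured. With a promoter defined as a peak edge within 3000 bp of an annotated transcription start site (TSS), 613 broad peaks (83.6%, 80.7 to 86.2%) were promoter peaks, against 3831 narrower peaks (71.0%, 69.8 to 72.2%) and 72.5% of all. Of the rest, 68 broad peaks (9.28%, 7.28 to 11.6%) were in introns, against 809 narrower peaks (15.0%) and 14.3% of all. Exonic peaks were 1.64% of broad and 4.78% of narrower peaks, and intergenic peaks 5.46% and 9.23%. The midpoint lay within 500 bp of a TSS for 50.6% of broad and 43.7% of narrower peaks, and by this measure the intron shares were 28.4% and 28.7%. By width class this midpoint share was 36.5% under 300 bp, 55.9% from 750 to 999 bp and 37.5% at 2000 bp or more. It was thus highest just below the limit. In the group of highest fold enrichment it was 46.3% of broad and 51.8% of narrower peaks, while in each weaker group the broad share was the higher. In the second-round w1118 list split at the same width the promoter share hardly differed, 79.4% of 180 broad peaks against 78.6% of 858 narrower ones. There the midpoint was near a TSS in fewer broad than narrower peaks, 37.2% against 52.2%. In the rabbit list 91.7% of broad and 82.4% of narrower peaks were promoter peaks, and 69.0% and 64.8% had a midpoint within 500 bp of a TSS.

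A TSS lay inside 479 broad peaks (65.3%) and 1658 narrower peaks (30.7%). Per kilobase, broad peaks held no more TSSs than narrower ones, 0.887 against 0.957. TSSs of at least 2 genes lay inside 163 broad peaks (22.2%) and 315 narrower ones (5.84%), and TSSs on both strands inside 19.2% and 4.84%. By bases, broad peaks were 43.1% intron, 20.0% untranslated region, 14.4% other exon and 22.5% intergenic, against 39.1%, 18.7%, 16.4% and 25.7% in narrower peaks. On the arms as a whole 42.7% of bases are intron and 9.01% untranslated region. In the 338 broad peaks with TSSs of 1 strand only, the peak reached a median of 861.5 bp downstream of the first TSS and 396.5 bp upstream of it, and the downstream arm was the longer in 65.4%. In 1397 such narrower peaks the arms were 225 and 153 bp, and the downstream one was the longer in 58.0%. Where a peak held several TSSs, the distance between them fell in the downstream arm. At least 2 distinct TSSs lay inside 32.2% of all broad and 8.01% of all narrower peaks.

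**Figure D4:**
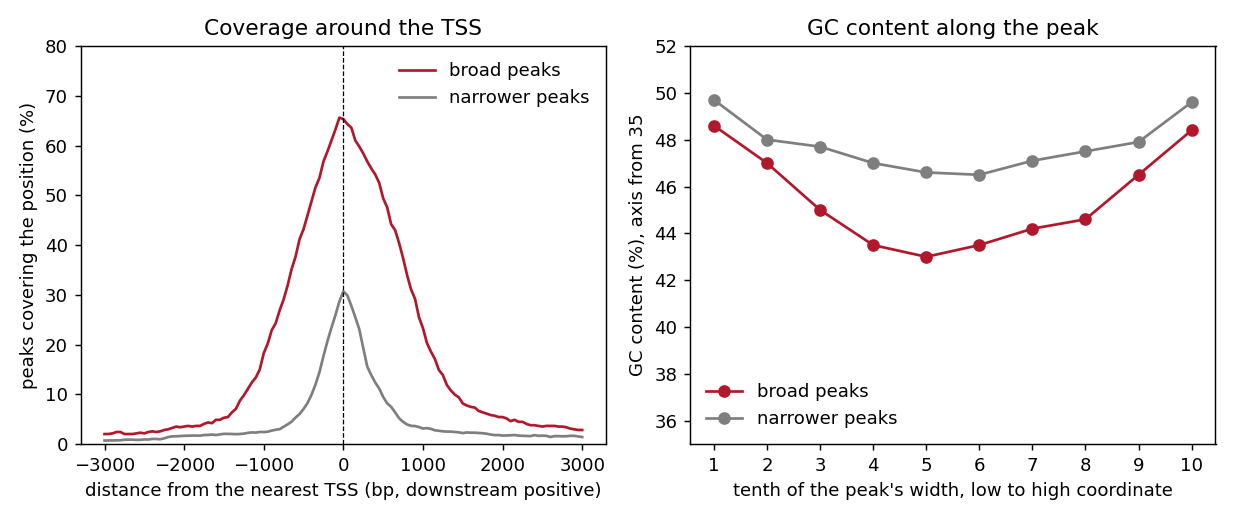
Left, share of broad (red) and narrower (grey) peaks that cover each position around the TSS nearest to the peak midpoint, in bp with downstream positive. Right, GC content (%, axis from 35) along the peak, in 10 equal steps of its width, for broad (red) and narrower (grey) peaks. At the TSS 65.3% of broad and 30.7% of narrower peaks cover the position, and GC content falls to 43.0% in the middle of broad peaks.

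The sequence at the middle of broad peaks held less GC than that of narrower peaks. Over 150 bp to either side of the midpoint the median GC content was 43.2% (quartiles 37.9 and 48.8%) in broad peaks, 48.2% (43.9 and 52.2%) in narrower peaks and 42.2% in all tiles of the same length on the arms. In peaks under 300 bp, which include 2103 narrower ones, the window reached past the peak. The content dipped along the peak. With each peak divided into 10 equal steps, broad peaks had 48.6% in the first step, 43.0% in the fifth and 48.4% in the last, against 49.7%, 46.6% and 49.6% in narrower peaks. Near a TSS (midpoint within 500 bp) the medians were 44.2% and 47.5%, and farther away 42.7% and 48.5%. Both other w1118 lists gave the same order, with 41.9% in 435 broad and 47.2% in 3013 narrower rabbit peaks, and 41.4% in 180 broad and 47.5% in 858 narrower second-round peaks. By width class the median was 49.2% from 300 to 499 bp, 47.5% from 500 to 749 bp and 43.5% from 750 to 999 bp, so the lower content began below the limit of 1000 bp. The 2 antibodies and rounds share loci, so these lists are not independent sets of regions.

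The same windows were searched for 4 motifs on either strand. GAGAG was present in 299 broad peaks (40.8%, 37.2 to 44.4%), in 47.2% of narrower peaks and in 30.3% of all tiles. CAGGTAG, the site of the pioneer factor Zelda, was present in 5.18%, 7.43% and 1.64%. TATCGATA, the DREF site, was present in 11 broad peaks, against 1.82% of narrower peaks and 0.848% of tiles. GGTCACAC, the core of Motif 1, which M1BP binds at promoters of constitutively expressed genes, was present in 1.36% (0.656 to 2.49%) of broad peaks, 3.15% (2.70 to 3.65%) of narrower peaks and 0.656% of tiles. Near a TSS CAGGTAG was present in 4.85% of broad and 4.83% of narrower peaks, GAGAG in 43.9% and 49.0%, and GGTCACAC in 2.43% and 6.32%. GAGAG was less frequent in broad peaks of the other w1118 lists too, with 37.2% against 46.0% in the rabbit list and 38.9% against 55.4% in the second-round list. Over whole peaks GAGAG occurred 3.95 times per kilobase in broad peaks, 4.53 times in narrower peaks and 1.57 times on the arms. Bases masked as repeats or low complexity made up a median of 15.3% of the window in broad and 10.6% in narrower peaks, and windows masked over 50% or more were 2.18% and 2.26%. A match is a description of the letters and not a site.

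Broad peaks overlapped the bodies of 941 annotated genes, of which 784 were protein-coding, 5.62% of the 13945 protein-coding genes on the arms. A TSS of 711 genes lay inside a broad peak. The median length of the 784 genes was 8186 bp, against 5017 bp for protein-coding genes with narrower peaks only and 2166 bp for all. A choice by body overlap favours long genes. Protein-coding genes with a TSS in a broad peak had a median of 6277.5 bp, and those with a TSS only in narrower peaks 4394.5 bp. Of the 733 broad peaks 72 overlapped no gene and 225 overlapped at least 2. Of the 941 genes 45 held at least 2 broad peaks and 5 held 3 or 4. CG1677, chrX:7281089-7405797, and lncRNA:CR44357 held the same 4, and brk lies inside both. These were a 1396 bp peak with a fold enrichment of 3.51, a 1453 bp peak 6723 bp upstream of brk with 4.21, the 1300 bp peak over the TSS of brk with 7.07 and a 1600 bp peak over the TSS of CBP, a calcium-binding protein gene, with 3.93. All 4 had a rabbit peak, of 649, 1286, 1221 and 1033 bp, and a second-round w1118 peak, of 1007, 1412, 1721 and 1032 bp. Imp, lobo and nkd, which encodes an antagonist of Wnt signalling, held 3 broad peaks each.

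The gene lists describe which classes of genes carry broad peaks. The share with a broad peak in the body was 5 of 11 gap and head gap genes, 4 of 9 pair-rule genes, 4 of 13 segment polarity genes, 3 of 8 Hox genes and 7 of 27 dorsoventral and mesoderm genes. It was 2 of 13 proneural genes, 2 of 17 Notch pathway genes and 3 of 18 nuclear receptor and ecdysone genes. Each is to be read against 5.62% of all protein-coding genes, and against gene length, with medians of 3373 bp for the gap list and 2533 bp for the pair-rule list but 30563 bp for the Hox list. Genes without any peak made up 0% to 27.8% of these lists, against 73.9% of all protein-coding genes. Only narrower peaks were found in 45.5% to 69.2%, against 20.5% of all. The shares alone therefore do not separate carrying a broad peak from carrying any peak. Genes with a broad peak and with only narrower peaks numbered 784 and 2852 over all protein-coding genes. These counts were 5 and 5 in the gap list, 4 and 5 in the pair-rule list and 4 and 8 in the segment polarity list. For Hox genes they were 3 and 4, and for dorsoventral genes 7 and 18. For proneural, Notch and nuclear receptor genes they were 2 and 9, 2 and 11, and 3 and 10. Among gap genes, knrl had the strongest broad peak (chr3L:20620550-20622186, fold enrichment 5.24), with a rabbit peak of 1558 bp. The peak over the TSS of gt had 3.81 and a rabbit peak of 683 bp. The peak in oc, away from its TSSs, had 3.62, that over the TSS of hb 3.10 and that over the TSS of kni 2.97, and the last 3 had no peak in either other w1118 list. Among pair-rule genes, run had 5.03 with a rabbit peak of 1074 bp, odd 4.33 with one of 702 bp, eve 3.40 and slp1 3.10, each over a TSS. All other pair-rule genes had narrower peaks only, such as hry, whose strongest peak spanned 744 bp with a fold enrichment of 6.95.

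Of the segment polarity genes, ptc had 2 broad peaks and smo and arm 1 each over a TSS, with fold enrichments of 3.58 and 4.12, and nkd had 3 of up to 3.80. The Hox genes lab, pb and Abd-B had 1 each, with 4.76, 4.23 and 3.33. None of these was in the rabbit list, which held 69.3% of all broad peaks. Among dorsoventral genes, brk led, followed by zen, a homeobox gene of the amnioserosa (5.05), Doc1, a T-box gene (4.59), and pnr, a GATA factor gene (4.20). The mesoderm repressor gene sna had a 1510 bp peak of 3.33 with a rabbit peak of 1386 bp. Of the proneural list, D, a Sox gene, had 5.65 and sc 4.12. Of the Notch list, kuz, which encodes a protease that cleaves Notch, had 3.39 and fng 3.17. Of the nuclear receptor list, EcR, the ecdysone receptor gene, had a 2573 bp peak of 4.55, Hr3 one of 4.24 and ERR one of 3.99.

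Of the lists examined, that of corepressors had the highest share of genes with a broad peak, 7 of 11, with a median gene length of 8968 bp. Of the others, 3 had only narrower peaks and 1 had none. Over all protein-coding genes 5.62% had a broad peak, 20.5% only narrower peaks and 73.9% none. This list, too, was thus rich in genes with any peak. Smr had a broad peak in an intron, chrX:12735129-12736324, with a fold enrichment of 5.46, a rabbit peak of 1134 bp and a second-round w1118 peak of 1137 bp, and its 7 other peaks were narrower. CoRest, which encodes a partner of LSD1, had 5.30, Sin3A, a scaffold of class I deacetylase complexes, 4.09 and gro, the Groucho corepressor gene, 3.58. CtBP had 3.49, Gug, which encodes Atrophin, 3.35 and HDAC1 3.34. All 7 were in the rabbit list and 5 were in the second-round w1118 list, all but CtBP and CoRest. Of all broad peaks 69.3% and 39.6% were in these lists. The rabbit peaks at Sin3A and HDAC1 spanned 368 and 416 bp, and those at the other genes over 1000 bp. HDAC3 itself had no peak in the first-round rat list, and the peaks at ebi, sd, Cad99C and CG32772 were all narrower. Pioneer, insulator and promoter factors had broad peaks in 6 of 14 genes, including psq (5.32), lola (3.88), Clamp (3.82) and Adf1 (3.60), and Trl, the GAGA factor gene, had 2. Of the cellularization genes, 2 of 4 had one, slam and Sry-alpha.

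Housekeeping lists were near the share of all genes. Broad peaks overlapped 3 of 92 cytosolic ribosomal protein genes (3.26%), 3 of 73 mitochondrial ribosomal protein genes (4.11%) and 3 of 48 proteasome genes (6.25%). RpS28a had the strongest of these, with a fold enrichment of 5.97 and a rabbit peak of 1163 bp, and the 8 others lay between 3.05 and 4.35. All 9 met a rabbit peak, as did 69.3% of all broad peaks.

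**Figure D5:**
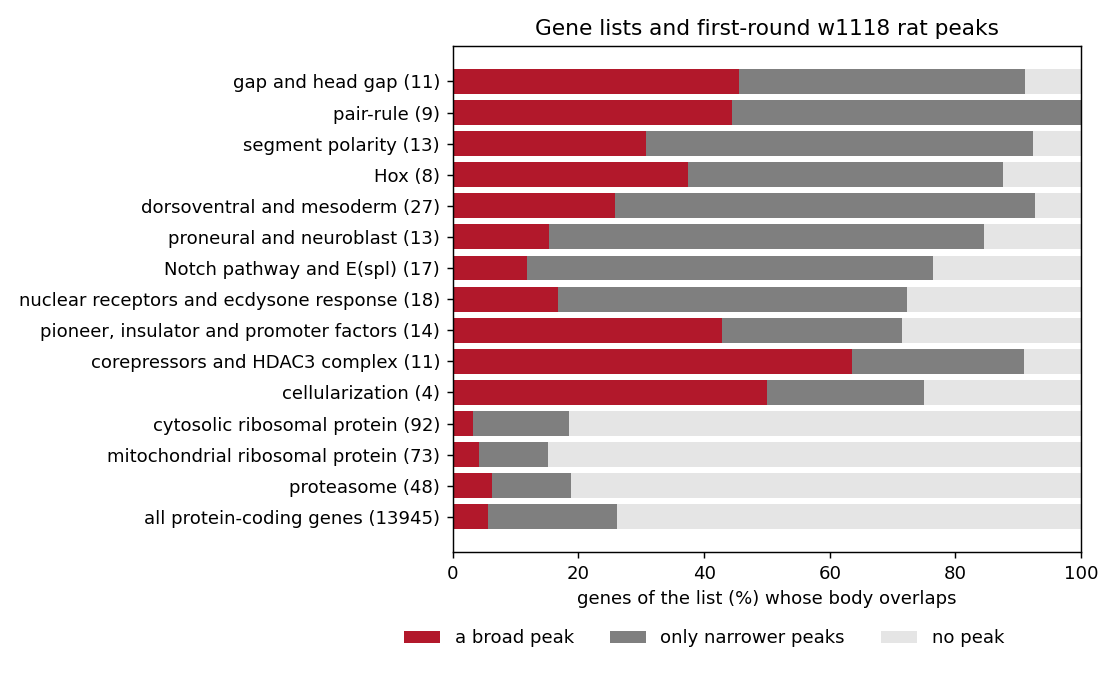
Share of the genes in each list (%) whose body overlaps a broad peak (red), only narrower peaks (dark grey) or no peak (light grey) of the first-round w1118 rat list, with the number of genes in brackets. Corepressor genes have broad peaks in 63.6% and ribosomal protein genes in 3.26%, against 5.62% of all protein-coding genes.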

How the data were processed

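CUT&Tag peak lists of 4 libraries were analysed, 1 each from w1118 embryos with the rat and the rabbit antibody (first round) and from HDAC3 shRNA and w1118 embryos with the rat antibody (second round). Per the labels and the methods, the authors used Trim Galore on the reads, Bowtie2 for alignment to dm6, MACS2 for peaks and ChIPseeker for annotation. Versions and peak calling options are not given in the sources used here. The fold enrichment the authors deposited is a ratio of signal to local background. The −log10 p-value and q-value are as deposited. The deposited score was not used on its own. The lists give no read numbers, so depth is unknown, and no summits, so the midpoint was used.

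The members and the gene lists were chosen with earlier results of these data known. Width is end minus start. Genes were those of Ensembl release 115 on assembly release 6 without transposable elements, 18164 on the arms, and sequence was the RefSeq copy of that assembly. Each peak was a promoter peak (edge within 3000 bp of a TSS), else exonic, intronic or intergenic. Named were the 12 strongest and 8 widest broad peaks, the 3 nearest to the limit on each side, all that met the shRNA list, the genes with most broad peaks, up to 4 genes per list by fold enrichment and genes of the HDAC3 complex and of the study; others were named after their values were seen. The symbols h, Dl and Atro are hry, Delta and Gug in the annotation. Sequences on chromosome arm 2R were not printed. Python 3.11.15, numpy 2.4.6, pandas 2.3.3, scipy 1.17.1 and matplotlib 3.10.9 were used, and the interval functions were tested on simulated data. Alternatives were other width limits, overlaps, promoter windows, gene models, stronger peaks and the list of the other round.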

Additional observations from a re-analysis of the deposited data

How the results depend on the processing

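No paired analysis was possible because the groups share no 2 replicate numbers, and no result comes from a test. Of 61 alternatives, 22 stayed within the interval of the reported value (counts within 1.5 times) and 39 moved; of the 48 that compare broad with narrower peaks, 46 kept their direction. The 2 that did not were for the HDAC3 shRNA list, with 0% and 0.111% for a reciprocal overlap of 50% and 0.136% and 0.148% by midpoint. Many of the 48 use any overlap or edge distance, which favour broad peaks by construction, so the count does not measure robustness. Kept directions include gaps of 0.89 percentage points (promoter share, second-round list) and −0.293 (intron share, midpoint within 500 bp). Outside the 48, the second-round share with a midpoint within 500 bp of a TSS was reversed, 37.2% against 52.2%.

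With a limit of 750 bp there were 1391 broad peaks over 1589 genes, of which 63.4% met the rabbit list and 33.4% the second-round w1118 list, 80.4% were promoter peaks and the rabbit peaks had a median of 775.5 bp. With 1500 bp these values were 196, 302, 78.6%, 56.1%, 90.3% and 1074 bp, the intron share was 5.10% and the shRNA share 2.04%. Peaks below the limits of 750 and 1500 bp met the rabbit list in 33.4% and 38.9% and the second-round list in 11.3% and 15.0%. Their promoter shares were 70.2% and 71.9%. Below 1500 bp the intron share was 14.6% and the shRNA share 0.169%. Peaks with a −log10 q of 5 or more gave 294 broad peaks, 396 genes, 87.8% in the rabbit and 67.0% in the second-round list. For narrower peaks of that q-value these shares were 68.1% and 36.6%. Without the first-round rat library (second-round list instead) there were 180 broad peaks over 200 genes, with shares of 90.0% for rabbit, 1.67% for shRNA, 79.4% for promoters and 11.7% for introns and a median GC content of 41.4%; the rabbit list, added after the data were seen, gave 41.9%. Narrower second-round peaks had 70.4% for rabbit, 1.4% for shRNA, 78.6% for promoters and 12.8% for introns. Their GC content was 47.5%, and that of narrower rabbit peaks 47.2%. A reciprocal overlap of 50% gave 40.0% (rabbit) and 21.0% (second round), and the midpoint 46.9% and 26.2%. For narrower peaks these were 26.9% and 8.9%, and 32.3% and 11.5%. Promoter and intron shares were 75.6% and 13.4% for an edge within 1000 bp, 72.9% and 14.6% within 500 bp, and 50.6% and 28.4% for a midpoint within 500 bp. In the same order, narrower peaks had 54.6% and 22.3%, 47.7% and 24.8%, and 43.7% and 28.7%. With protein-coding genes only the promoter share was 78.6%, against 64.6% of narrower peaks. The causes of these moves were not tested.

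The only replicate is the second-round w1118 library. When its list was split at the same width, the orders of the rabbit share and GC content were as in the first round (90.0% against 70.4% and 41.4% against 47.5%), while the promoter shares nearly met (79.4% against 78.6%). The rabbit and shRNA libraries have no replicate, depth is unknown, and peaks that neighbour each other or share a locus are not independent. Measures that grow with width (any overlap, edge distance, TSS inside) favour broad peaks by construction.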
